A study of Homo sapiens with 6 samples.

Results

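To follow transcripts of the machinery that drives cells into mitosis, the 10 genes CCNB1, CCNB2, CCNA2, CDC2 (now named CDK1), PLK1, AURKA, TPX2, CDC25B, CDC25C and WEE1 were taken by symbol from a table of 37879 rows, in which each row stands for 1 gene or transcript. All 10 were found. Transcript levels had been measured on 6 Illumina bead arrays with total RNA of HEK293T cells, a human embryonic kidney line with the large T antigen of SV40. In the control group (3 arrays) cells had been transfected with an empty vector. In the Stau1 group (3 arrays) they had received a plasmid coding for Stau155-FLAG, the tagged 55-kDa isoform of the RNA-binding protein Staufen1. The study's methods describe transfection as transient. They list a Stau155-FLAG plasmid with a Rous sarcoma virus promoter among others, and do not name the one used for these arrays. Both groups were exposed to nocodazole, a drug that depolymerizes microtubules and holds cells in prometaphase, at 50 ng/ml for 15 h per the labels, while the methods state a longer time for this line. The series holds no cells without nocodazole, so the arrest itself could not be read from these arrays. The labels do not say whether arrays of a group came from separate cultures, and p-values therefore measure the spread between these samples, which may be technical.

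Entry into mitosis is driven by the kinase CDK1 bound to a B-type cyclin. WEE1 holds the complex inactive by phosphorylating CDK1, and the CDC25 phosphatases remove that phosphate. Cyclin A2 with its kinase partners, the Polo kinase PLK1 and the Aurora kinase AURKA, which TPX2 activates and targets to spindle microtubules, push the switch forward. Most of these genes are transcribed late in the cycle, in G2, through a promoter element called the cell cycle genes homology region (CHR), which recruits the DREAM complex when they are silent and MYBL2 and FOXM1 when they are active, and often through CCAAT boxes, which bind NF-Y.

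Promoters of the members were searched for these elements as a description. RefSeq promoter windows (GRCh38.p14, 250 bases before to 50 after a transcript start) were matched by symbol for 7 of the 10 genes. The search covered the CHR form TTTGAA with its relatives CTTGAA, then TTCGAA, and last the form TTTAAA, and also CCAAT, all on both strands, and neighbouring motifs could share letters. The 4 CHR forms were chosen after the letters of the members' promoters had been seen, so their presence in the members is a description. For each of the 7 genes 1 match on the gene's strand is given, taking the forms in that order and then the match nearest to the start, with the CHR form in capitals and 9 bases on either side.
CCNB1: agtgcggggTTTAAAtctgaggct
CCNB2: gacgcggtaTTTGAAtcctggaac
CCNA2: cgcgggataCTTGAActgcaagaa
CDC2: cgcggtgagTTTGAAactgctcgc
PLK1: agcgccgcgTTTGAAttcggggag
CDC25B: ctgttatttTTCGAAtatataagg
CDC25C: ggcggaaggTTTGAAtggtcaacg

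These stretches lie at chr5:69167111-69167134 (CCNB1, plus strand), chr15:59105108-59105131 (CCNB2, plus), chr4:121823897-121823920 (CCNA2, minus), chr10:60778456-60778479 (CDC2, plus), chr16:23678851-23678874 (PLK1, plus), chr20:3796263-3796286 (CDC25B, plus) and chr5:138331820-138331843 (CDC25C, minus). Each match began upstream of the annotated start, from base -38 (CDC25B) to base -13 (CDC2). The form TTTGAA was found in windows of CCNB2, CDC2, PLK1 and CDC25C, and on either strand 6 of the 14 member windows held it, against 15.2% of all 35116 windows. All 7 genes had a window with both a CHR form and CCAAT. Over all genes with a window that share was 14.9%, and over the other mitotic entry genes described further below it was 12 of 41. Since the forms were chosen with the members' promoters seen, the members' count was bound to be high, and setting it beside these shares is no test. With TTTGAA as the only form, 4 of the 7 genes had a window with it and CCAAT. That share was 7.26% over all genes with a window, and 10 of 41 over the other mitotic entry genes. This too is a description. CDC25B and CDC25C have 4 windows each, those of CDC25C partly overlapping, and CDC2 has 2, so these genes had more chances of a match. In the stretches shown, the nearest CCAAT upstream (on either strand) began 25 bases before the CHR form in CCNB1 and CCNB2, and 55 bases before it in CDC25C.

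Values are log2 intensities after background correction and quantile normalization, and a row counts as detected on an array where its detection p, from the negative control beads of that array, is under 0.05. The median raw intensity over all rows ranged from 83.0 to 102.2 between arrays, and 12730 to 13469 rows per array were detected. Tests were made over the 13285 rows detected on at least 3 arrays. STAU1 itself, in a row that averages several probes of unknown position, was higher on all 3 Stau1 arrays than on all 3 controls, by 0.15 on the log2 scale (SE 0.09), and did not pass (limma, adjusted p = 0.999). Of markers listed for HEK293T cells, NEFL, NEFM, VIM, KRT8 and KRT18 were detected on all 6 arrays, LHX1 on 4, PAX2 on 1 and EYA1 on 0. Of the markers of other cell types reported here, CDX2 was detected on all 6 arrays, KRT20 on 1, and VIL1, LGALS4, PTPRC, CD3E, ALB and APOA1 on 0.

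All 10 mitotic entry genes were detected on all 6 arrays, and none passed the threshold between Stau1 and control cells (limma, adjusted p = 0.999 for each; 0% of all kept rows passed). At an unadjusted p under 0.05 the count was also 0 of 10, against 3.73% of all kept rows. The groups overlapped for every one of the 10. Over all kept rows, all Stau1 arrays lay above all controls in 4.51% and below them in 3.4%. The members' log2 changes ran from -0.30 (CDC2) to 0.21 (TPX2), with a median of -0.019 beside -0.0021 over all kept rows. For 8 of the 10 the change was smaller than 0.1 on the log2 scale, as it was for 53.1% of all kept rows. The 95% intervals of the change all included 0. They lay within 1.5-fold in both directions for 9 genes, the exception being CDC2. In RNA from whole cultures, fewer cells in mitosis and less RNA per cell cannot be told apart.

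**Figure D1:**
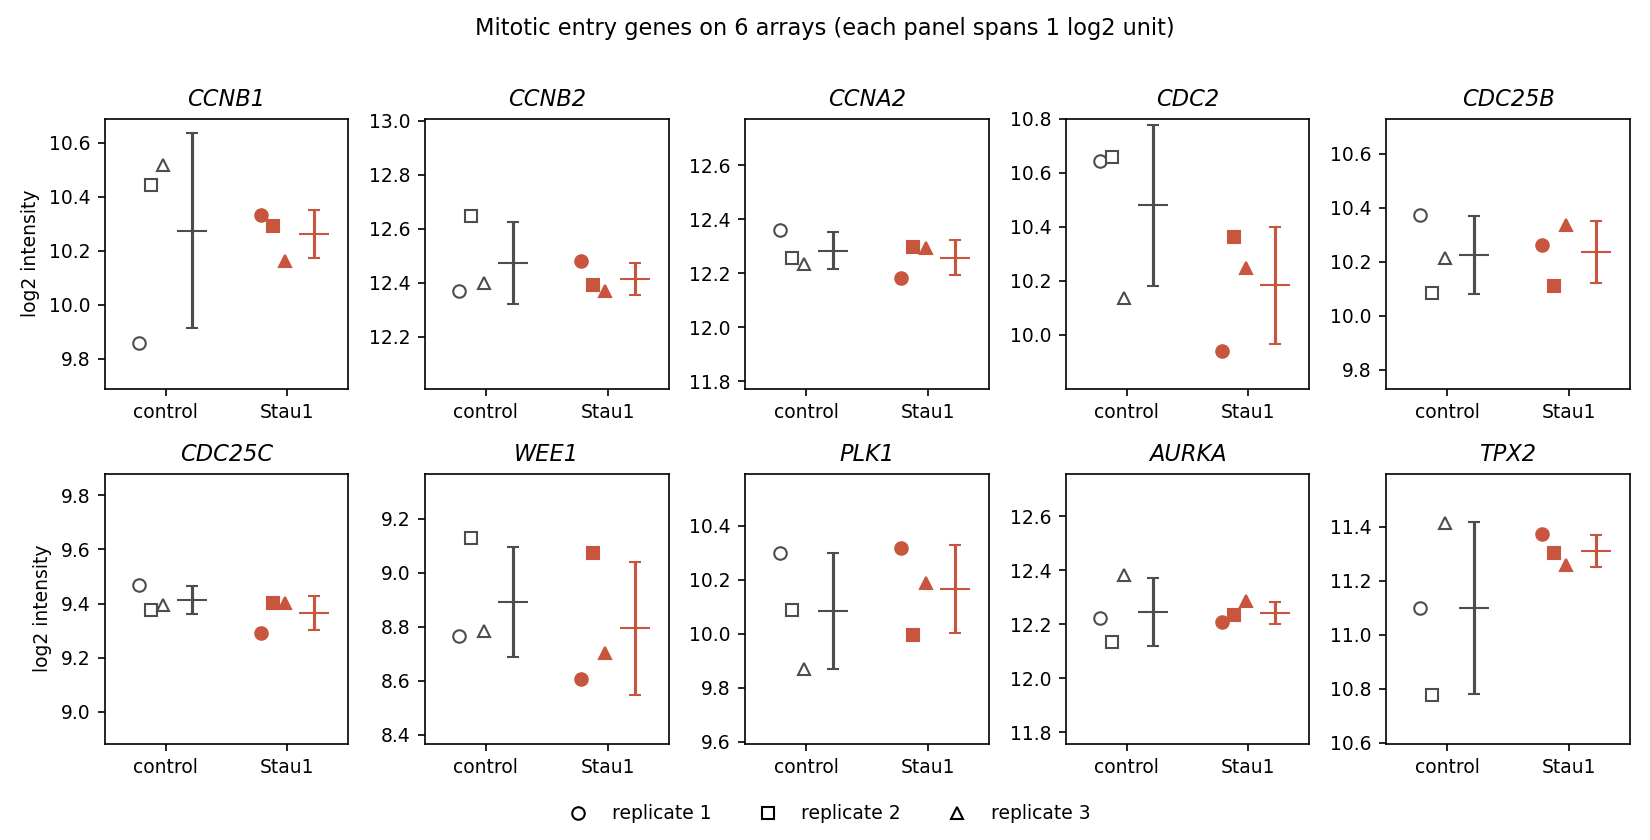
Log2 intensity (y axis) of each of the 10 genes on the control (open symbols) and Stau1 (filled symbols) arrays, with symbol shape giving the replicate number and the bar beside each group its mean ± SD (n = 3). Each panel spans the same range, and the groups overlap in all 10 panels, with the widest control spread for CCNB1 (SD 0.36).

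Among the cyclins, the 3 genes had Stau1 and control means within 0.06 of each other on the log2 scale and differed in spread. CCNB1, coding for cyclin B1, the main partner of CDK1 in mitosis, read 9.86, 10.44 and 10.52 on control arrays 1, 2 and 3, and 10.33, 10.29 and 10.16 on Stau1 arrays 1, 2 and 3. Control array 1 was the lowest of the 6 by a wide margin, while control arrays 2 and 3 were the highest. Control arrays averaged 10.27 ± 0.36 (SD, n = 3) and Stau1 arrays 10.26 ± 0.09 (SD, n = 3), a log2 change of -0.012 (SE 0.15). Only 8.90% of kept rows had a larger SD among controls. The value therefore rested on control array 1, since without it the change was -0.22, with an unadjusted p of 0.0497 in limma (adjusted p = 0.972). At that unadjusted threshold CCNB1 was then 1 of 10 members, beside 4.15% of kept rows. Without control array 3 the change was 0.11, in the opposite direction.

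CCNB2, coding for the second B-type cyclin, read 12.37, 12.65 and 12.40 on control arrays 1, 2 and 3, and 12.48, 12.39 and 12.37 on Stau1 arrays 1, 2 and 3. Control array 2 stood highest and the other 5 arrays lay close together. The change was -0.059 (SE 0.09), with means of 12.47 ± 0.15 (SD, n = 3) and 12.41 ± 0.06 (SD, n = 3). CCNA2, coding for cyclin A2, which acts in S phase and at the onset of mitosis, read 12.36, 12.26 and 12.23 on control arrays 1, 2 and 3, and 12.18, 12.30 and 12.29 on Stau1 arrays 1, 2 and 3. It was among the steadiest of the 10 genes, with a range over the 6 arrays of 0.18 that 95.3% of kept rows exceeded. Its change was -0.025 (SE 0.08), and its 95% interval ran from 0.868-fold to 1.11-fold.

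CDC2, coding for the kinase CDK1 that all these cyclins can bind, gave the largest difference among the 10 genes and did not pass. It read 10.64, 10.66 and 10.14 on control arrays 1, 2 and 3, and 9.94, 10.36 and 10.25 on Stau1 arrays 1, 2 and 3. Control arrays 1 and 2 were the highest and Stau1 array 1 was the lowest, but control array 3 lay below Stau1 arrays 2 and 3. Means were 10.48 ± 0.30 (SD, n = 3) for control and 10.18 ± 0.22 (SD, n = 3) for Stau1 arrays. The log2 change was -0.30 (SE 0.15), with a 95% interval from -0.62 to 0.03, an unadjusted p of 0.0715 and an adjusted p of 0.999 in limma. The two-sided exact permutation p was 0.3, where 0.1 is the smallest p that 3 against 3 arrays allow. Of all kept rows, 6.37% had a larger absolute change. Without control array 3 the change was -0.47 (unadjusted p = 0.00304, adjusted p = 0.163, limma), in a fit where 12.8% of kept rows had an unadjusted p under 0.05. Without Stau1 array 1 it was -0.17. Without Stau1 array 2 it was -0.39 (unadjusted p = 0.0421, adjusted p = 0.9998, limma), in a fit where 3.22% of kept rows had an unadjusted p under 0.05. The CDC2 row averages more than 1 probe, so a difference confined to 1 of them could not be read.

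The phosphatases that activate CDK1 differed little. CDC25B, which acts early in the switch, read 10.37, 10.09 and 10.21 on control arrays 1, 2 and 3, and 10.26, 10.11 and 10.34 on Stau1 arrays 1, 2 and 3. Both groups covered the same span, and the change was 0.012 (SE 0.11). The row averages several probes, and its combined detection p reached 0.0351. CDC25C, a phosphatase of the same family that is switched on by CDK1 itself, read 9.47, 9.37 and 9.39 on control arrays 1, 2 and 3, and 9.29, 9.40 and 9.40 on Stau1 arrays 1, 2 and 3. Stau1 array 1 was lowest and control array 1 highest. The control SD of 0.05 was exceeded by 94.2% of kept rows, and the change was -0.048 (SE 0.11). WEE1, the kinase that opposes both, read 8.77, 9.13 and 8.78 on control arrays 1, 2 and 3, and 8.61, 9.07 and 8.70 on Stau1 arrays 1, 2 and 3. In each group array 2 was the highest, well above the other arrays of that group. Its change was -0.099 (SE 0.15), and its 95% interval of 0.742-fold to 1.18-fold was the widest among the CDK1 regulators CDC25B, CDC25C and WEE1 on the log2 scale.

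Among the mitotic kinases, PLK1, which primes WEE1 for destruction and activates CDC25C, read 10.30, 10.09 and 9.87 on control arrays 1, 2 and 3, and 10.32, 10.00 and 10.19 on Stau1 arrays 1, 2 and 3. Stau1 array 1 and control array 1 were the highest, and control array 3 was the lowest. The change was 0.081 (SE 0.13), and without control array 3 it was -0.027. AURKA, which activates PLK1, read 12.22, 12.13 and 12.38 on control arrays 1, 2 and 3, and 12.21, 12.23 and 12.28 on Stau1 arrays 1, 2 and 3. Control arrays 2 and 3 were its lowest and highest values, so the controls enclosed all 3 Stau1 arrays. The change was -0.0042 (SE 0.09), with an interval from 0.874-fold to 1.14-fold.

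TPX2, the activator of AURKA, gave the largest positive change among the 10 genes and did not pass. It read 11.10, 10.78 and 11.41 on control arrays 1, 2 and 3, and 11.37, 11.30 and 11.26 on Stau1 arrays 1, 2 and 3. The Stau1 arrays lay together, above control arrays 1 and 2, while control array 3 was the highest of all. TPX2 averaged 11.10 ± 0.32 (SD, n = 3) over control and 11.31 ± 0.06 (SD, n = 3) over Stau1 arrays. The log2 change was 0.21 (SE 0.13), with a 95% interval from -0.077 to 0.50, an unadjusted p of 0.137 and an adjusted p of 0.999 in limma (exact two-sided permutation p = 0.4). Of all kept rows, 15.7% had a larger absolute change. Without control array 3 the change was 0.37 (unadjusted p = 0.00569, adjusted p = 0.213, limma), and without control array 2 it was 0.052. CDC2 and TPX2 were the 2 of 10 members under an unadjusted p of 0.05 without control array 3, beside 12.8% of kept rows. In that fit 39 rows (0.294%) passed the adjusted threshold and none of the 10 members did. With all 6 arrays weighted by their quality, 2 of the 10 also had an unadjusted p under 0.05, beside 9.72% of kept rows, and CDC2 (-0.30) and TPX2 (0.28) had the lowest adjusted p of the members (0.460 and 0.449, limma).

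**Figure D2:**
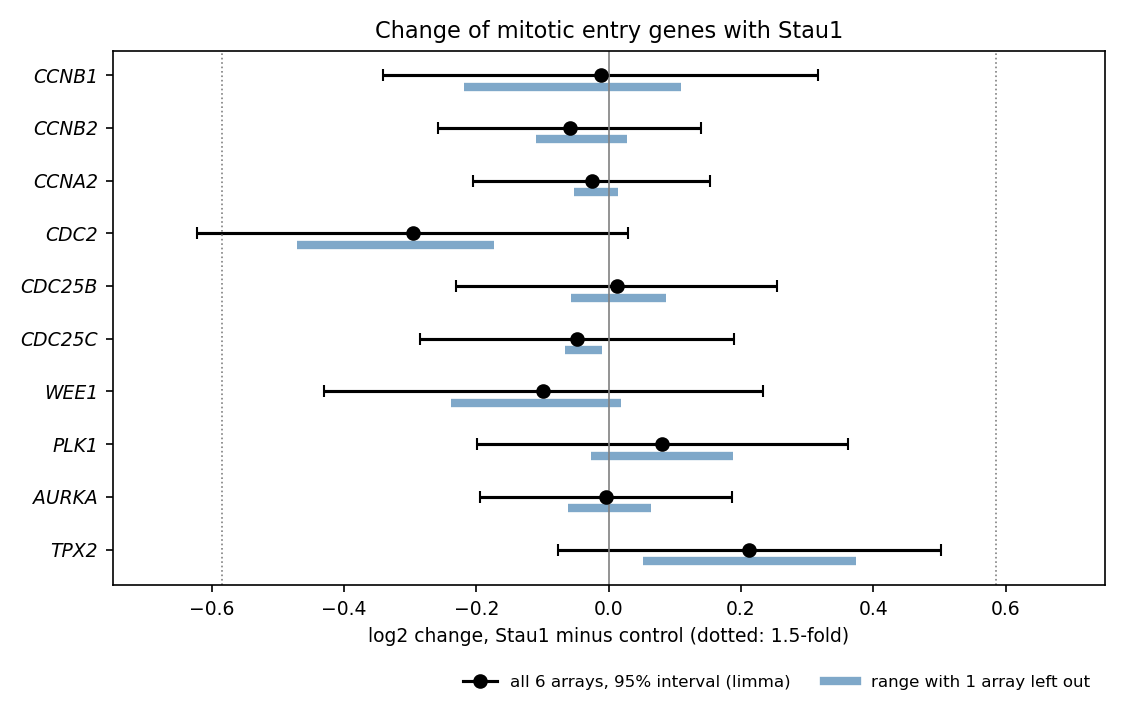
Log2 change, Stau1 minus control (x axis), of the 10 genes (y axis), with 95% intervals from limma over all 6 arrays (black) and the range of the change when 1 array is left out (blue). All intervals include 0, and only that of CDC2 reaches past the dotted line at 1.5-fold.

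Spread between arrays of a group was compared with the error over beads. That error was computed on raw intensities, while the spread is of background-corrected, normalized values, so small gaps cannot be ranked. Each value averaged 32 to 60 beads, and the standard error over beads was 2.03% to 5.57% of the intensity over the 10 genes and 6 arrays. For CCNB1 the median bead error was 0.058 on the log2 scale, against an SD of 0.36 among controls and 0.09 among Stau1 arrays. For TPX2 it was 0.043, against 0.32 and 0.06. The SD among controls was larger than the median bead error for all genes but CDC25C, for which the values (0.05 against 0.048) were too close to rank. The SD among Stau1 arrays was larger for all but AURKA, for which 0.040 over arrays stood against 0.045 over beads. The control SD exceeded the Stau1 SD in 8 of the 10 genes, the exceptions being CDC25C and WEE1, beside 68.4% of all kept rows. The median SD of the 10 genes was 0.18 in control and 0.08 in Stau1 arrays, beside 0.17 and 0.12 over all kept rows.

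The 10 genes did not rise and fall together over the 6 arrays. Their mean deviation from each gene's own average ran only from -0.035 (Stau1 array 1) to 0.024 (control array 2), although single genes deviated by up to 0.43. Over the 45 pairs of members, Pearson's r across the 6 arrays ran from -0.84 (CDC2 with TPX2) to 0.94 (CCNA2 with CDC25C), with a median of -0.066 and 21 pairs above 0. These are descriptions over 6 arrays that share their normalization and include both groups. TPX2 and its partner AURKA had an r of 0.75, and both were lowest on control array 2 and highest on control array 3. CCNB1 and CCNB2 had an r of 0.50, and CDC25B and WEE1, which act on CDK1 in opposite directions, had an r of -0.83. CDC25C, which likewise acts against WEE1, had an r of 0.22 with WEE1, and PLK1 and its activator AURKA had an r of -0.52. Pairs with a like relation between their proteins therefore differed in sign, and these few pairs were picked from the 45. The kept rows outside the list most like the mean deviation of the members were H3F3B, EIF4B and MDGA2 (r = 0.99 over 6 arrays for each), and 222 rows (1.67%) had an r above 0.9.

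**Figure D3:**
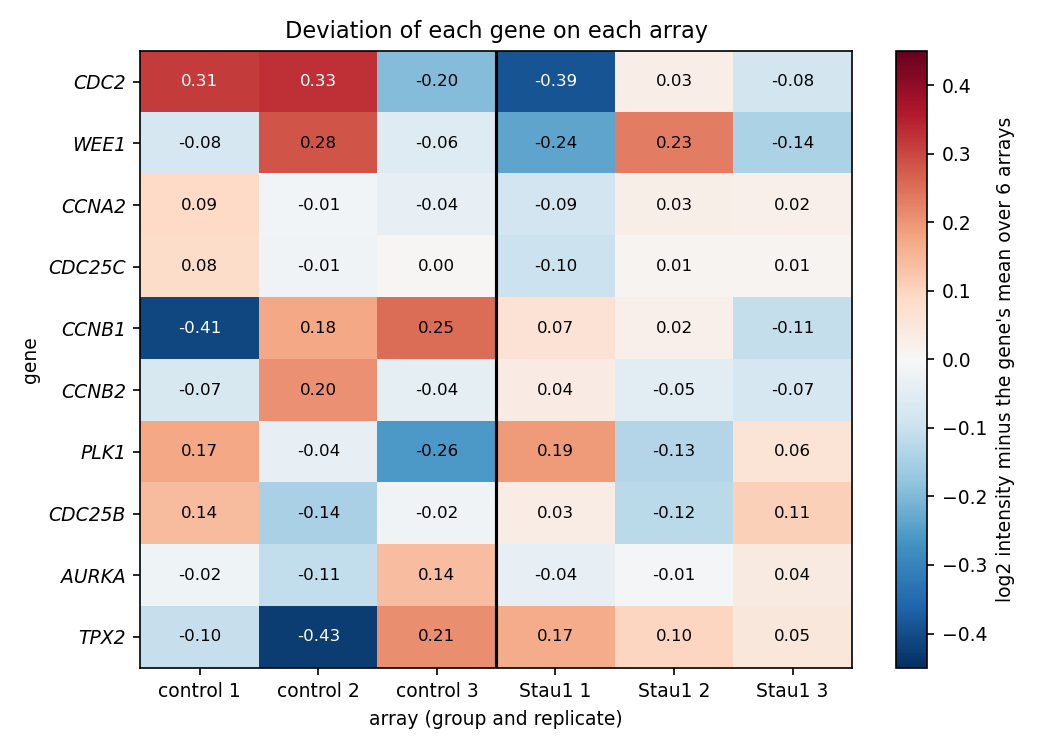
Log2 intensity minus the gene's own mean over the 6 arrays (colour and number) for each gene (rows) on each array (columns, control left and Stau1 right of the line). CDC2 is high on control arrays 1 and 2 and low on control array 3 and Stau1 array 1, TPX2 runs largely the other way, and CCNB1 is lowest on control array 1.

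Other genes of the mitotic entry network were read from a list of 51 arranged by role, of which 44 were kept. Of these 44, 0 passed (limma, lowest adjusted p = 0.999), 25 were higher and 19 lower with Stau1, and the median log2 change was 0.021. At an unadjusted p under 0.05 there was 1 gene, INCENP, the scaffold that binds and activates the Aurora kinase AURKB. INCENP read 7.47, 7.26 and 7.44 on control arrays 1, 2 and 3, and 7.63, 7.68 and 7.85 on Stau1 arrays 1, 2 and 3, so every Stau1 array lay above every control. Its change was 0.33 (SE 0.15), with an unadjusted p of 0.0428 and an adjusted p of 0.999 in limma. The INCENP row averages more than 1 probe. With median scaling, or without control array 2, Stau1 array 2 or Stau1 array 3, 0 network genes were under that unadjusted threshold. The share of rows tested under it was 1.72% to 3.22% there. In the other settings 1 to 4 were. The count was 4 with array weights and without control array 3, beside 9.72% and 12.8% of rows tested. It was 1 or 2 in the rest, beside 2.98% to 4.55% of rows tested. AURKB itself changed by -0.036 (SE 0.08). The groups also did not overlap for CHEK2, a checkpoint kinase that restrains CDC25 proteins (-0.14), and NFYC, a subunit of NF-Y (-0.10), both lower with Stau1. These counts, 1 of 44 higher, 2 of 44 lower and 1 of 44 by unadjusted p, stand beside 4.51%, 3.4% and 3.73% of all kept rows.

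The next genes by unadjusted p were ARPP19, an inhibitor of the phosphatase PP2A-B55 (-0.21, SE 0.12), CCNF (0.18, SE 0.11), CDC25A, the third CDC25 phosphatase (0.15, SE 0.11), and PPP2CA, the catalytic subunit of PP2A (0.13, SE 0.10). None of them passed (limma, adjusted p = 0.999). The 3 subunits of the CDK-activating kinase, which phosphorylates CDK1 on its activating site, gave values from -0.13 (CDK7) to -0.097 (MNAT1), with overlapping groups for each. Kept genes listed for the transcription of G2 genes ran from -0.12 (NFYB) to 0.25 (MYBL2, SE 0.20). MYBL2 was detected on only 4 arrays. FOXM1, the factor that activates most of the members in G2, gave 0.13 (SE 0.11). The 2 kept genes of the Polo group, PLK4 and C13ORF34 (now BORA, a cofactor of AURKA towards PLK1), gave 0.0047 and -0.055. The 7 genes not kept were CCNB3 and JUB (each detected on 2 arrays), NEK9 (on 1) and PLK2, PLK3, AURKC and NFYA (on 0).

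**Figure D4:**
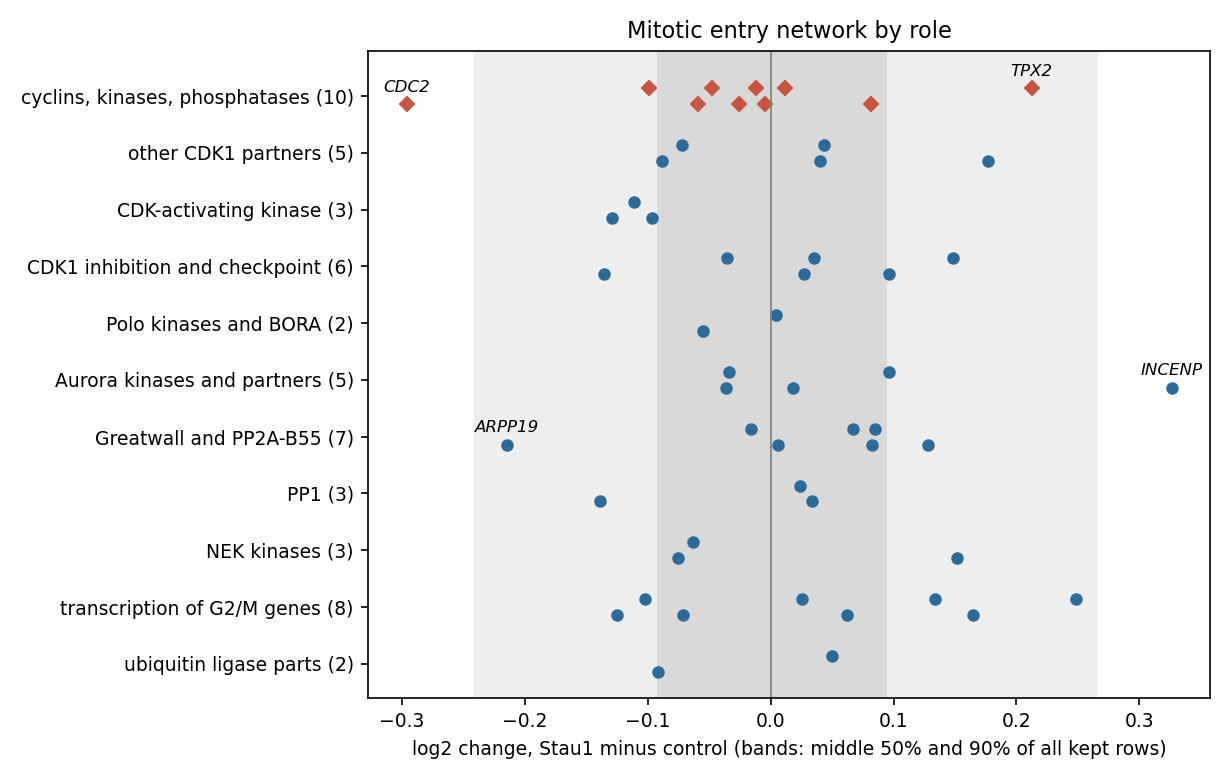
Log2 change, Stau1 minus control (x axis), of the 10 members (diamonds, top row) and of the 44 kept genes of the network list by role (circles, number of genes in brackets), against the middle 50% and 90% of all 13285 kept rows (dark and light bands). CDC2 and INCENP lie outside the light band, at -0.30 and 0.33, and no gene shown passed the threshold.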

How the data were processed

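Total RNA of 6 HEK293T samples (3 control, 3 Stau1, grouped by the transfection in their labels) had been hybridized to Illumina HumanWG-6 v3 arrays. Per the file headers, the deposited intensity of a gene is the mean over its probes, exported without normalization, with a deposited detection p-value, an error over beads and a bead number. Beads per gene and signal over background limit the precision.

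Normexp (offset 16), quantile normalization and log2 were applied with limma 3.58.1 (R 4.3.3). Control beads were not used here, so the background was inferred from detection p-values of the 30932 rows with whole bead counts and detection p-values in whole steps of 1 in 759 (tolerance 0.002 steps). Rows detected (p under 0.05) on at least 3 arrays were kept. Groups were compared with lmFit and eBayes (variance trend), with Benjamini-Hochberg adjustment over 13285 rows and a threshold of 0.05. The fit was tested on simulated data drawn with limma's moderated SDs, after a first draw with unmoderated SDs had recovered fewer of the planted changes. The simulation shares the variance model of the fit, so it cannot show how the fit does on these arrays. In it 200 of 200 planted 2-fold changes and 110 of 200 planted 1.5-fold changes were recovered, with 12 and 8 false calls. CHR forms were chosen after member promoters had been seen. Alternatives changed the background step, offset, normalization, filter, variance model, array weights, replicate block or the arrays used, or applied a t-test. The methods name that test for arrays of mRNAs immunoprecipitated with Stau1, not for these arrays of total RNA.

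The members, the lists, the background restriction and the tests were chosen with earlier results of these data known. All members are named. 1 marker of another cell type is not reported here. Of the network list, genes past the threshold or else the 5 with the lowest unadjusted p are named, with extremes of a role; those with groups apart and some regulators were named after their values were seen. C13ORF34 and JUB were matched through older names. Figures were drawn with matplotlib 3.10.9.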

Additional observations from a re-analysis of the deposited data

How the results depend on the processing

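With all 6 arrays, 0 of the 10 members, 0 of the kept network genes and 0 of all kept rows passed in limma or in the methods' t-test under each of the 11 other settings (496 rows had an unadjusted p under 0.05 in limma and 462 in that test), and with 1 array left out the count over all rows ran from 0 to 39 (39 without control replicate 3), still with 0 members and 0 network genes. Of 109 member values with all arrays, 101 kept their direction. Settings that changed only the filter, the variance trend, the replicate block or the test could not move a change. Their values therefore kept direction by construction. Median scaling, which moved the median of all kept rows to 0.0679, turned CCNB1 to 0.0750, CCNB2 to 0.0219, CCNA2 to 0.0595, AURKA to 0.0806 and CDC25C to 0.0414, of which CCNB1 and AURKA lay slightly above that shift and the other three below it. Array weights turned CCNA2 to 0.00545 and AURKA to 0.0441, and cyclic loess turned AURKA to 0.00458. With 1 array left out, CCNB1 ran from -0.219 to 0.110, CCNB2 from -0.109 to 0.0283, CCNA2 from -0.0520 to 0.0138, PLK1 from -0.0275 to 0.189, AURKA from -0.0622 to 0.0642, CDC25B from -0.0565 to 0.0860 and WEE1 from -0.238 to 0.0184. CDC2 (-0.472 to -0.174), TPX2 (0.0520 to 0.373) and CDC25C (-0.0664 to -0.0104) kept their direction there. The causes were not tested. With the replicate block, which could not move a change in this layout, CDC2 was again at -0.296 (limma, adjusted p = 0.985), and no call changed. Arrays of the same number did not all deviate together (r = 0.015, 0.26 and -0.14 across kept rows), and the arrays were treated as unpaired. With array weights 2 members had an unadjusted p under 0.05, beside 9.72% of kept rows. A detection p under 0.01 on all arrays removed CDC25B, which then has no value.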
